A study of Mus musculus with 14 samples.

Results

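Transcripts of 9 genes of the erythroid and megakaryocyte lineages were followed through blood cell formation in the mouse embryo, from aortic endothelium to intra-aortic haematopoietic clusters (IAHCs) and yolk sac progenitors. The 9 genes were taken by symbol and were *Gata1*, *Klf1*, *Zfpm1*, *Nfe2*, *Car2*, *Alas2*, *Pf4*, *Plek* and *Gp1bb*. All 9 had a row in each table, out of 19322 genes for E10 single cells, 19424 for E11 single cells and 19425 for whole IAHCs (wIAHCs, single clusters picked up mechanically).

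Single cells were sequenced by CEL-Seq, in which molecules are counted by barcodes. From ICR embryos with the reporter alleles Gfi+/tomato/ Gfi1b+/GFP came 3 aortic populations, namely non-haemogenic endothelium (non-HE, Cdh5+ Gfi1- Gfi1b- c-kit-), haemogenic endothelium (HE, Cdh5+ Gfi1+ Gfi1b- c-kit-) and cells in endothelial-to-haematopoietic transition (EHT, Cdh5+ Gfi1+ Gfi1b- c-kit+). C57BL/6 wild-type embryos gave IAHC cells (c-kit+CD31+, and at E11 also a c-kit+ sort), yolk sac haematopoietic stem/progenitor cells (YS HSPCs, c-kit+), E11 pre-HSCs (c-kit+ Cdh5+, of type I without CD45 and of type II with it) and the wIAHCs. At E10 there were 43 non-HE, 98 HE, 191 EHT, 73 IAHC and 141 YS cells, 546 in all, each at 3000 transcripts. At E11 there were 30 non-HE, 46 HE, 46 EHT, 62 type I, 55 type II, 201 c-kit+CD31+ IAHC, 89 c-kit+ IAHC and 46 YS cells, 575 in all, each at 5000 transcripts. The 43 E10 non-HE cells are in the E10 table and under an E10 label, but their columns are named for early E11, so their stage is uncertain. No cell column was shared between the stages or deposited in duplicate. IAHC cells had been selected by the study on transcripts of the cluster marker *Gpr56*, which was found in every IAHC and pre-HSC cell but in 125 of 141 E10 and 38 of 46 E11 YS cells, so ratios of YS to IAHC cells compare cells chosen in different ways. Each sorted population stands for at most 1 sample (both pre-HSC types come from the same one), so no test was made between populations. Intervals are exact 95% Poisson (means, ratios) or Clopper-Pearson (shares) intervals that cover counting error only. Comparisons between stages used E11 cells thinned to 3000 transcripts. The gates of the 3 reporter populations left out Gfi1b+ cells and their strain differed from that of the YS and IAHC cells, so gate and strain cannot be told apart from the population there. Endothelial genes were detected as the labels imply, with a mean of 36.6 transcripts per cell over 12 endothelial genes in E10 non-HE cells, 29.5 in HE, 9.07 in EHT, 5.15 in IAHC and 0.518 in YS cells.

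Red cells and platelets share a bipotent progenitor. In it *Gata1*, a zinc-finger factor, works with its partner *Zfpm1* (Friend of GATA-1). *Klf1* directs the erythroid branch and *Nfe2*, a bZIP subunit, serves late megakaryocyte maturation and globin genes. Downstream, *Alas2* makes the first step of haem synthesis in red cells and *Car2* encodes carbonic anhydrase II, while *Pf4* (platelet factor 4), *Plek* (pleckstrin, a protein kinase C substrate) and *Gp1bb* (a subunit of the von Willebrand factor receptor) belong to platelets. *Plek* is also made by leukocytes and *Car2* by other tissues, so neither marks a lineage alone.

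The regions before the start sites of 4 of these genes are printed because the yolk sac and wIAHC results below turn on these genes. They come from RefSeq on GRCm38.p6, read 5′ to 3′ on the gene's strand, and stop before the first annotated exon. Capitals mark the core GATA site GATAA and the KLF-type box CACCC on either strand (TTATC and GGGTG when reversed). The pieces are *Gata1* at chrX:7967911-7968160 (minus strand), *Klf1* at chr8:84901732-84901927 (plus), *Alas2* at chrX:150547167-150547374 (plus) and *Plek* at chr11:17008719-17008968 (minus).
*Gata1*: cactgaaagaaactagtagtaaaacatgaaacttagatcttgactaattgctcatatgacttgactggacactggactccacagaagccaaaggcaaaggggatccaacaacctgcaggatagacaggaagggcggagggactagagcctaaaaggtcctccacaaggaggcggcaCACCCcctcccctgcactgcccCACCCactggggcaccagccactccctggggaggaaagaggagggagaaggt
*Klf1*: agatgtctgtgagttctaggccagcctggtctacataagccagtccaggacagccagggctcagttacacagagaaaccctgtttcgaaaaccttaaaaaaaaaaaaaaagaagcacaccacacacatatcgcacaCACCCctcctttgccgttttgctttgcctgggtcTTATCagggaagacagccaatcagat
*Alas2*: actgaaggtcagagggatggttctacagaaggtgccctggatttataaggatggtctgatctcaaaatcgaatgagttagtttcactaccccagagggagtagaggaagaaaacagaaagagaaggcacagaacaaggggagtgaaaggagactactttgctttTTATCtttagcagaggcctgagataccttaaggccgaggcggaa
*Plek*: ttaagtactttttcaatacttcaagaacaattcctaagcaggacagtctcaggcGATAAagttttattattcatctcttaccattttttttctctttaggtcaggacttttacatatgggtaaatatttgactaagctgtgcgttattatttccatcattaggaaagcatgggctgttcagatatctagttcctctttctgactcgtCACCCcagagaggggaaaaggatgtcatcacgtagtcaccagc

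Of the 9 genes, 7 had a promoter entry (all but *Car2* and *Nfe2*). Within 250 bases before the start, GATAA was found in 3 of the 7 (*Klf1*, *Plek* and *Alas2*) and in 22.6% of all 32851 promoters. The CACCC box was found in 6 of 7, all but *Pf4*, and in 52% of all promoters. Those of *Alas2* and *Gp1bb* lay inside annotated exons and are not in the printed pieces, which leaves 4 genes with a box outside exons (*Klf1*, *Zfpm1*, *Plek* and *Gata1*). The longer AGATAA occurred in *Alas2* only, against 9.99% of all promoters, and overlaps its GATAA. The longer KLF-type CCACACCC was in 0 of the 7 and in 3.2% of all promoters. The composite of CANNTG and GATA was found in none of the 7 at any of the 3 spacings searched. These are letter matches and not measured binding. *Gp1bb* (chr16:18620317-18622403, minus strand) overlaps *Sept5* (chr16:18620502-18629954), which had no transcript in any single cell.

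*Gata1* was most frequent in the yolk sac. At E10 a transcript was found in 47 of 141 YS HSPCs (33.3%, 25.6 to 41.8) and in 2 of 73 IAHC cells (2.74%, 0.334 to 9.55). It was in 0 of 191 EHT cells (which allows up to 1.6% of cells with a transcript at 3 counts, and 1.9% by the exact interval), and in 0 of 98 HE and 0 of 43 non-HE cells. Mean levels were 0.518 transcripts per cell in YS HSPCs (0.406 to 0.651) and 0.0274 in IAHC cells (0.00332 to 0.0990). The 2 sorted YS sets gave 27.7% and 38.2%, both above every aortic population.

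At E11 *Gata1* was found in 13 of 46 YS HSPCs (28.3%, 16.0 to 43.5), 14 of 201 c-kit+CD31+ IAHC cells (6.97%, 3.86 to 11.4), 8 of 89 c-kit+ IAHC cells (8.99%, 3.96 to 16.9) and 3 of 55 type II pre-HSCs (5.45%, 1.14 to 15.1). No transcript was found in the 62 type I pre-HSCs, 46 EHT, 46 HE or 30 non-HE cells. Over both IAHC sorts it was in 22 of 290 cells (7.59%), and the 9 sorted sets ranged from 2% to 14.3%. The YS mean was 4.2 times that of IAHC cells (2.18 to 7.92), while the intervals of the type II and IAHC shares overlapped. The intervals of the YS share and the c-kit+ IAHC share overlapped at the deposited depth. They also overlapped at 3000 transcripts, where the YS share was 15.2% (6.34 to 28.9) and the c-kit+ IAHC share 6.74% (2.51 to 14.1). At 3000 transcripts the E11 YS mean was 0.378 times the E10 YS mean (0.166 to 0.757). Stage and sorted set cannot be told apart in this ratio or in any other ratio of E11 to E10 YS cells below, since E11 YS cells form 1 set.

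*Klf1* was also most frequent in the yolk sac at both stages. It was in 37 of 141 E10 YS HSPCs (26.2%, 19 to 34) at a mean of 0.383 (0.29 to 0.50), in 1 of 191 EHT cells, and in none of the 73 IAHC, 98 HE and 43 non-HE cells. At E11 it was in 8 of 46 YS HSPCs (17.4%, 7.82 to 31.4), 5 of 201 and 3 of 89 IAHC cells, and 1 type I pre-HSC. The E11 YS mean was 8.93 times the IAHC mean (4.02 to 20.5). Between stages the YS ratio at equal depth was 0.568 (0.258 to 1.13), an interval that includes 1.

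**Figure D1:**
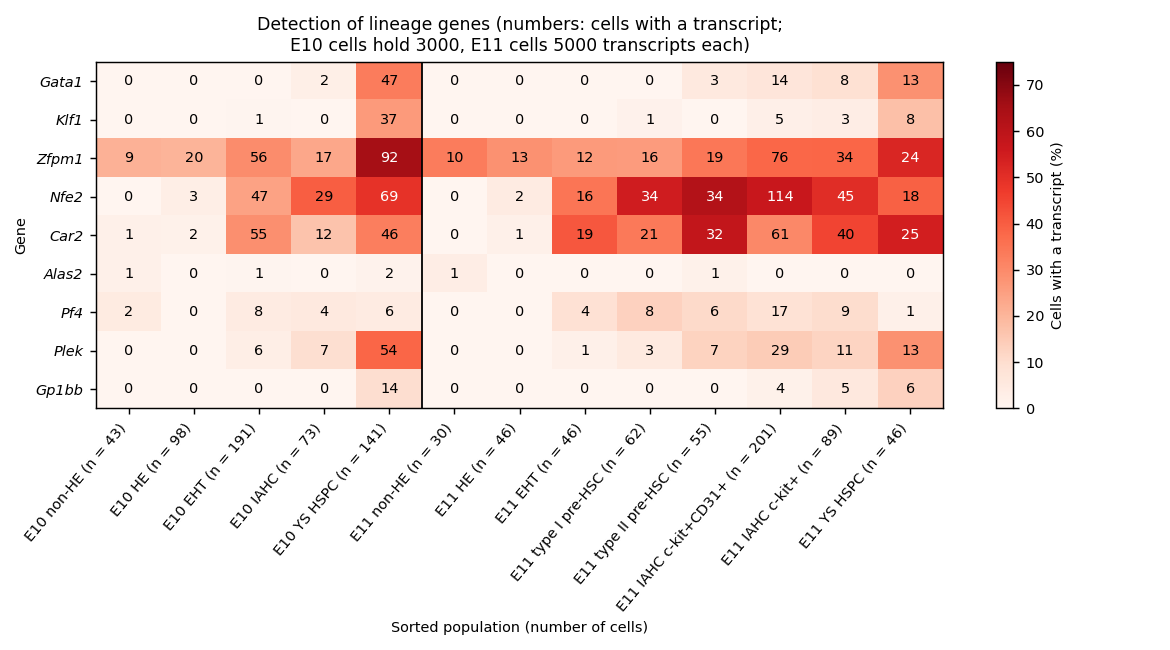
Share of cells with at least 1 transcript of each gene (colour, percent) in each sorted population (columns, with the number of cells), with the number of cells printed in each field. *Gata1* is at 33.3% in E10 YS cells and at 0 in the non-HE, HE and EHT columns of both stages, while *Zfpm1* is found in every column.

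*Zfpm1*, the partner of *Gata1*, was not restricted in this way. It was found in 9 of 43 non-HE, 20 of 98 HE, 56 of 191 EHT, 17 of 73 IAHC and 92 of 141 YS cells at E10. Mean levels in the 4 aortic populations lay between 0.209 and 0.356 transcripts per cell with overlapping intervals, and the YS mean was 1.26 (1.08 to 1.45). YS cells had 4.36 times the IAHC level (2.8 to 7.2). At E11 the YS level was 1.58 times the IAHC level (1.07 to 2.26), and the E11 YS mean was 0.364 times that of E10 at equal depth (0.220 to 0.573).

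*Nfe2* first appeared in number at the EHT stage. At E10 it was in 0 of 43 non-HE and 3 of 98 HE cells, then in 47 of 191 EHT cells (24.6%, 18.7 to 31.3), 29 of 73 IAHC cells (39.7%, 28.5 to 51.9) and 69 of 141 YS cells (48.9%, 40.4 to 57.5). The mean was 0.0306 in HE, 0.288 in EHT, 0.603 in IAHC and 0.723 in YS cells. IAHC cells had 2.09 times the EHT level (1.38 to 3.17), while the YS to IAHC ratio of 1.2 (0.835 to 1.75) includes 1. At E11 the highest means were in type II pre-HSCs (1.00, 0.753 to 1.30) and type I pre-HSCs (0.855, 0.64 to 1.1), followed by c-kit+CD31+ IAHC cells (0.796), c-kit+ IAHC cells (0.697) and YS cells (0.565, 0.369 to 0.828). All neighbours in this order had overlapping intervals, and the interval of type II pre-HSCs also overlapped that of YS cells. At E10 the YS interval (0.590 to 0.878) lay above that of EHT cells (0.217 to 0.375) but overlapped that of IAHC cells.

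*Car2* also started at EHT but then took a different order. It was in 1 of 43 non-HE, 2 of 98 HE, 55 of 191 EHT (28.8%, 22.5 to 35.8), 12 of 73 IAHC (16.4%, 8.79 to 27.0) and 46 of 141 YS cells (32.6%, 25 to 41) at E10. The IAHC level was 0.511 times that of EHT cells (0.285 to 0.866), and YS cells had 2.10 times the IAHC level (1.2 to 3.8). At E11 the YS mean of 1.33 (1.0 to 1.7) was followed by type II pre-HSCs at 0.982 (0.738 to 1.28), c-kit+ IAHC cells at 0.787 (0.613 to 0.994), EHT cells at 0.652 (0.440 to 0.931), type I pre-HSCs at 0.484 (0.326 to 0.691) and c-kit+CD31+ IAHC cells at 0.408 (0.324 to 0.506). Each neighbour in this order overlapped the next, but type II exceeded type I by 2.03 times (1.28 to 3.28) and the c-kit+ sort exceeded the c-kit+CD31+ sort by 1.93 times (1.38 to 2.69). Its YS level was higher at E11, by 1.9 times at equal depth (1.27 to 2.84), where *Gata1*, *Zfpm1*, *Nfe2* and *Plek* had ratios whose intervals lay below 1. Sets differed widely for this gene, from 0% to 50% of cells over the 3 type I sets. Between sets of the same number, the means of type I and type II cells were 0 and 0.9, 0.765 and 1.2, and 0.2 and 0.7, higher in type II in each.

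*Alas2* was close to absent from the single cells. It was found in 1 non-HE, 1 EHT and 2 YS cells at E10, and in 1 non-HE cell and 1 type II pre-HSC at E11. These shares do not exceed those in endothelium, so no expression was read from them. The wider haem and iron list of 19 genes was led by *Ftl1*, *Fth1* and *Glrx5*, which all cells use, and its mean was 15.6 transcripts per E10 YS cell against 14.1 per IAHC cell.

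The 3 platelet genes differed among themselves. *Plek* was in 54 of 141 E10 YS cells (38.3%, 30.2 to 46.9), 7 of 73 IAHC cells (9.59%, 3.94 to 18.8), 6 of 191 EHT cells and none of the HE and non-HE cells. YS cells had 3.39 times the IAHC level (1.79 to 7.09) and IAHC cells 4.80 times the EHT level (1.63 to 15.8). The 2 YS sets gave 26.2% and 48.7%, with means of 0.323 and 0.671. At E11 it was in 13 of 46 YS cells (28.3%), 29 of 201 (14.4%) and 11 of 89 (12.4%) IAHC cells and 7 of 55 type II pre-HSCs. The E11 YS to E10 YS ratio was 0.426 (0.196 to 0.829) over both E10 sets, and depends on them since their means differ. The YS to IAHC ratio at E11 was 1.85 (1.01 to 3.22).

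*Gp1bb* was found in 14 E10 YS cells (9.93%), 6 E11 YS cells, 4 c-kit+CD31+ and 5 c-kit+ E11 IAHC cells, and in no other population. Its E11 YS level was 5.16 times that of IAHC cells (1.89 to 13.7). *Pf4* was rare everywhere and lay in both places, with 2 of 43 non-HE (4.65%), 8 EHT (4.19%), 4 IAHC (5.48%) and 6 YS cells (4.26%) at E10 and 4 EHT, 8 type I, 6 type II, 26 IAHC and 1 YS cells at E11. Of the 23 *Pf4* transcripts in E10 YS cells, 13 came from 1 cell, and the YS to IAHC ratio of 2.38 (0.886 to 8.02) includes 1. It was in 0 of 98 E10 HE cells, and the intervals of the non-HE, EHT, IAHC and YS shares overlapped, so no order was read from them. For c-kit+CD31+ IAHC cells, the sort made at both stages, the E11 to E10 ratios at equal depth were 1.16 for *Zfpm1*, 0.850 for *Nfe2*, 1.05 for *Car2*, 0.872 for *Pf4* and 0.759 for *Plek*, all with intervals that include 1.

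**Figure D2:**
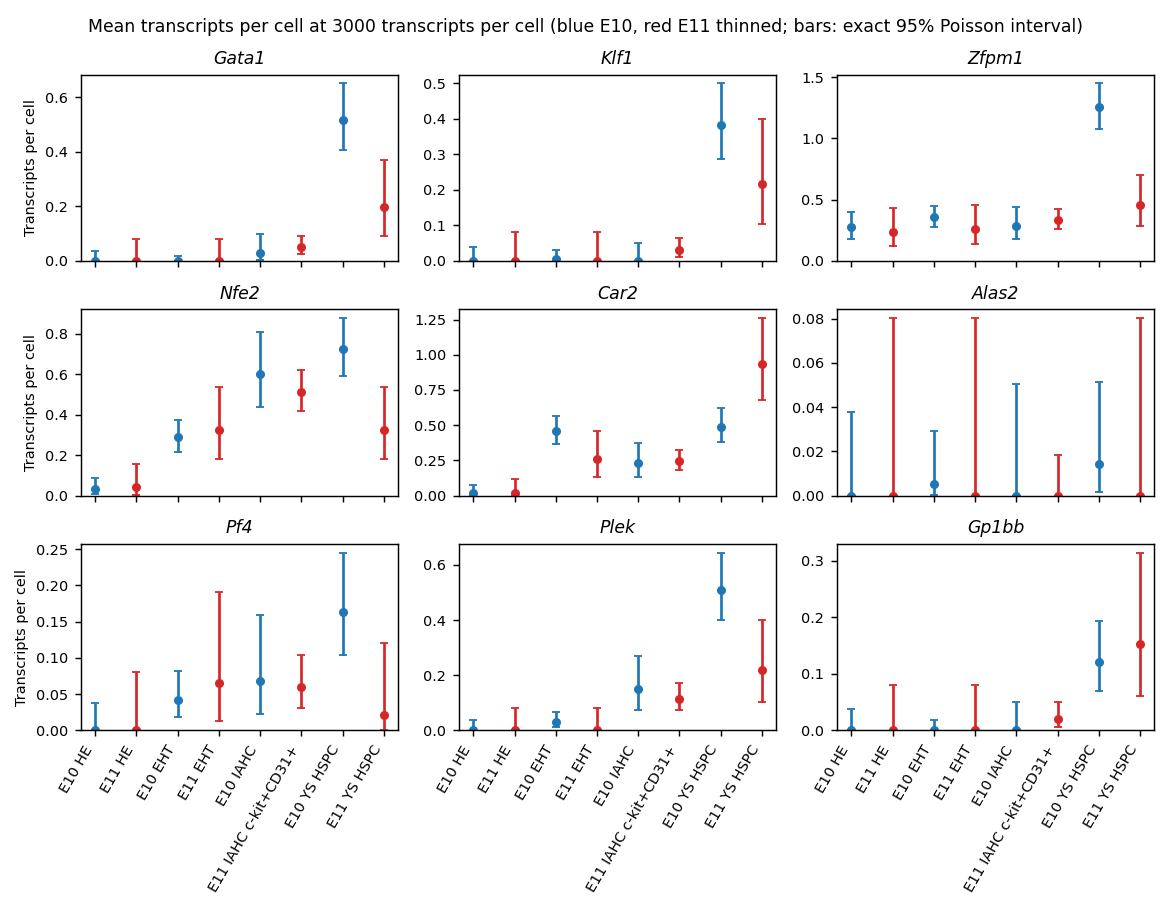
Mean transcripts per cell of each gene (vertical axis, scaled per gene) in HE, EHT, IAHC and YS cells at E10 (blue) and E11 (red, thinned to 3000 transcripts), with exact 95% Poisson intervals. The YS mean is lower at E11 for *Gata1*, *Zfpm1*, *Nfe2* and *Plek* and higher for *Car2*.

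Cells with a *Gata1* transcript were then compared with cells of the same population without one. In E10 YS HSPCs, *Klf1* was in 18 of 47 cells with *Gata1* (38.3%, 24.5 to 53.6) and 19 of 94 without (20.2%, 12.6 to 29.8). The 18 cells were 48.6% of those with *Klf1*. In E11 YS HSPCs it was in 6 of 13 against 2 of 33 (46.2% and 6.06%), and in E11 IAHC cells of both sorts in 7 of 22 (31.8%, 13.9 to 54.9) against 1 of 268 (0.373%, 0.00945 to 2.06). Of the 8 E11 IAHC cells with *Klf1*, 7 thus also had *Gata1*. With both genes called present only at 2 transcripts or more, the E10 YS shares were 3 of 20 (15%, 3.21 to 37.9) and 11 of 121 (9.09%, 4.63 to 15.7), and the intervals overlap at either minimum. Thinned to 3000 transcripts, *Klf1* was in 2 of 16 IAHC cells with *Gata1* (12.5%, 1.55 to 38.3) and 1 of 274 without (0.365%, 0.00924 to 2.02), and these intervals overlap. All cells of a stage were deposited at the same number of transcripts, and the part of their depth before that step was not tested.

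The other members shared cells with *Gata1* to different degrees. *Zfpm1* was in 83.0% of E10 YS cells with *Gata1* and 56.4% without, and in 84.6% and 39.4% at E11. *Car2* was in 44.7% and 26.6% at E10, and in 84.6% and 42.4% at E11. *Gp1bb* was in 30.8% and 6.06% of E11 YS cells and in 22.7% and 1.49% of E11 IAHC cells, with few cells behind each share (4 and 5 with both genes). *Nfe2* went the other way in IAHC cells, at 36.4% with *Gata1* and 56.3% without, with overlapping intervals. The largest number of members in 1 cell was 7, reached by 1 E10 and 1 E11 YS cell, against 5 in E11 IAHC cells (8 of 290).

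Cells with a platelet gene were read in the same way. Of the 40 E11 IAHC cells with *Plek*, 0 had *Klf1*, 9 had *Pf4* (22.5%, against 6.80% without *Plek*) and 5 had *Gp1bb* (12.5%, against 1.6%). In E10 YS cells with *Plek*, *Gp1bb* was in 9 of 54 (16.7%, against 5.75%) and *Pf4* in 5 of 54 (9.26%, against 1.1%), while *Klf1* was in 22.2% with and 28.7% without. *Klf1* was found with platelet genes in some cells and not in others. No E10 YS cell had both *Klf1* and *Pf4*, out of 37 and 6 cells, but 2 of the 8 E11 IAHC cells with *Klf1* had *Pf4* (25%, 3.19 to 65.1), against 24 of 282 without (8.51%). *Klf1* was in 4 of 14 E10 YS cells with *Gp1bb* and 33 of 127 without (28.6% and 26.0%), and in 2 of 6 and 6 of 40 at E11. These counts are small, and an overlap of 0 is also what few cells give.

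**Figure D3:**
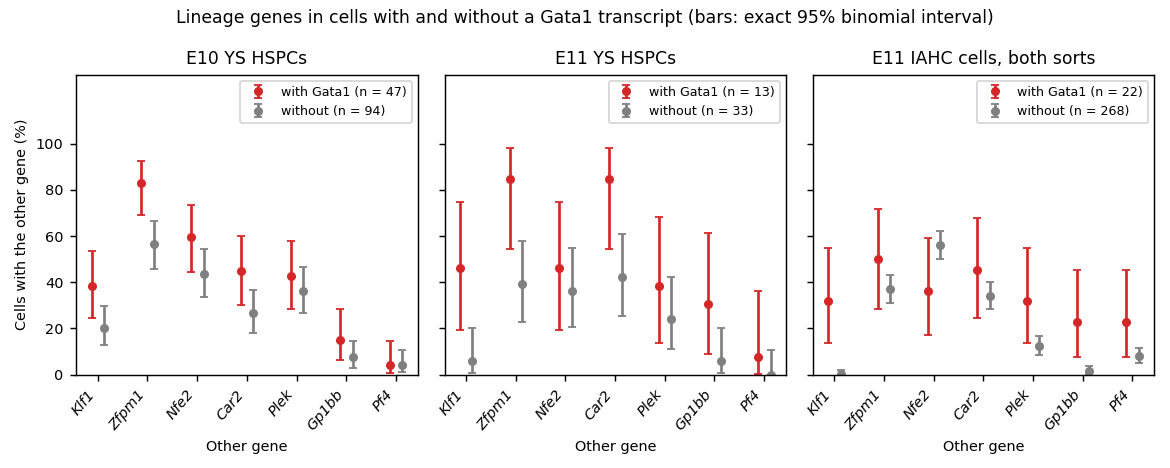
Share of cells with each other gene (percent, vertical axis) among cells with a *Gata1* transcript (red) and without (grey), in E10 YS, E11 YS and E11 IAHC cells, with exact 95% binomial intervals. In E11 IAHC cells *Klf1* stands at 31.8% with *Gata1* and 0.373% without.

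Genes outside the set were read in the same cells, and the 4 named here were chosen after their values were seen. *Cd34*, a surface antigen of stem and progenitor cells, was in 25.5% of E10 YS cells with *Gata1* and 63.8% without, in 38.5% and 93.9% at E11, and in 54.5% and 94.8% of E11 IAHC cells. *Mt1*, a metallothionein, was in 87.2% and 54.3%, in 69.2% and 45.5%, and in 68.2% and 8.58%. *Mpo*, a granule enzyme of granulocyte progenitors, was in 34.0% and 64.9% of E10 YS cells but in 40.9% and 34.3% of E11 IAHC cells. *Cdh5* (VE-cadherin) was in 36.4% of E11 IAHC cells with *Gata1* and 70.5% without. In all 3 groups of cells the share with *Cd34* was lower and that with *Mt1* higher beside *Gata1*, but the *Mt1* intervals overlapped in E11 YS cells (38.6 to 90.9 and 28.1 to 63.6), and no test was made.

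The same genes were read beside *Klf1*. *Cd34* was in 3 of 37 E10 YS cells with *Klf1* (8.11%, 1.7 to 22) against 66.3% without, and *Mt1* in 34 of 37 (91.9%) against 55.8%. The list of haem synthesis and iron genes had a mean of 20.3 transcripts per cell with *Klf1* and 13.9 without in E10 YS cells, 30.8 and 18.8 in E11 YS cells, and 30.1 and 18.6 in E11 IAHC cells (members left out of the lists). The list of red cell membrane and enzyme genes gave 4.49 and 2.83, 10 and 3.7, and 9.88 and 4.80, respectively. Lists of other lineages had lower means with *Klf1*. Megakaryocyte genes stood at 2.95 against 4.79 in E10 YS cells and 2.75 against 7.0 in E11 IAHC cells, and endothelial genes at 0.135 against 0.654 and 1.0 against 7.79. Neutrophil and monocyte progenitor genes had 4.59 against 8.97 and macrophage genes 0.297 against 1.45 in E10 YS cells. In each of the 3 groups of cells the haem and iron list and the red cell list were higher with *Klf1*. The megakaryocyte, endothelial, neutrophil and macrophage lists were lower in each. These means rest on 37 E10 YS cells and on 8 cells each at E11 and were not tested. Globin transcripts averaged 2.32 with *Klf1* and 0.808 without at E10, but 4.38 and 4.79 in E11 YS cells.

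Over the 141 E10 YS cells, the genes most like *Klf1* among 7674 ranked genes were *Mfsd2b*, a sphingosine-1-phosphate exporter of red cells (Pearson r of 0.42), *Cited4*, a transcriptional co-activator (0.40), and *Ssx2ip* (0.40). *Cited4* also had r values with *Klf1* of 0.63 over 46 E11 YS cells and 0.60 over 290 E11 IAHC cells, *Mfsd2b* of 0.39 and 0.57, and *Ssx2ip* of 0.45 and 0.096. The next genes by rank, *Tmem219* and *Nlrp1a*, had r values of -0.090 and -0.033 and of 0.15 and 0.10 there. For *Gata1* the first was again *Cited4*, with r of 0.36, 0.32 and 0.44 in the same 3 populations. The next by rank, *Necap2*, *Tubb4b*, *Cdkn2d* and *U2af1l4*, had r with *Gata1* of 0.31, 0.17, 0.023 and -0.29 over E11 YS cells. Over E11 IAHC cells they had 0.038, 0.16, 0.18 and -0.066. For *Plek* the first was *Gldc* (0.41, then -0.09 and 0.04), so that this likeness did not recur. For *Pf4*, found in 6 of the E10 YS cells, it was *Rab27b* (0.63, then -0.03 and 0.13). All points of a correlation share a population and a depth, and each r rests on few transcripts per cell.

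In wIAHCs the same genes were read in whole clusters, where fewer cells of a type and less RNA per cell cannot be told apart. Of 109 libraries, 57 held at least 5000 transcripts, namely 21 ventral and 7 dorsal wIAHCs at E10 and 17 ventral and 12 dorsal wIAHCs at E11, with 5079 to 114867 transcripts. Levels are in TPM (transcripts per 1000000 of the library, not corrected for length). Clusters of 1 embryo cannot be recognised, so p-values over wIAHCs may be too small, and E10 and E11 wIAHCs came from separate sets. The planned filter on low counts (edgeR filterByExpr) left 260 genes, of which 31.2% were called on the ventral and 9.23% on the dorsal side between stages, and none of the 9, so the tests below are edgeR quasi-likelihood tests without that filter, adjusted by Benjamini-Hochberg over 13627 genes. E11 libraries were divided into set 1 and set 2 by the prefix of their column names, and the labels do not say what the prefixes stand for. Of the 57 libraries, 3 (2 ventral and 1 dorsal, all in E11 set 2) held 13.2%, 23.7% and 27.6% globin transcripts and are given apart below. Another 3 globin-rich wIAHCs lay between 2000 and 5000 transcripts, and they came from E10 ventral (27.2% globin), E10 dorsal (25.9%) and E11 ventral set 1 (30.5%).

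Between E10 and E11 ventral wIAHCs, 4 members were called at an adjusted p of 0.05, with *Car2*, *Alas2* and *Klf1* higher and *Plek* lower at E11. Of all 13627 genes 2.27% were called, 184 of the 310 being higher. This balance depended on the setting, with 309 of 387 higher under RLE scaling and 199 of 559 at a minimum of 2000 transcripts. Genes of other kinds moved in the same fit. Of 9 mesenchyme genes tested 3 were higher (log2 fold changes by edgeR of 2.7 for *Col1a2*, 2.57 for *Col1a1* and 1.38 for *Sox11*), and the list took a median of 0.00338% of the library at E10 (0 to 0.140%) and 0.0235% at E11 (0 to 0.152%). *Malat1*, a nuclear RNA listed for RNA quality, was higher (log2 fold change 1.73, adjusted p = 7.36e-07) and *Cd34* lower (log2 fold change -1.11, adjusted p = 0.00164). Their part in the members' changes was not tested. *Car2* and *Plek* were called in every alternative that tested them. *Alas2* and *Klf1* were not called once the 3 globin-rich libraries were left out or with E11 set 1 alone, and DESeq2 gave *Alas2* an adjusted p of 0.445 and *Klf1* none, where it called 5.55% of the 4380 genes to which it gave an adjusted p.

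*Car2* was found in 11 of 21 E10 ventral libraries (lowest 0, median 18.9, highest 155.9 TPM) and in 14 of 17 E11 ventral libraries (0, 234.7 and 1220 TPM). The groups overlapped, with 3 E11 libraries at 0. The log2 fold change was 2.21 (SE 0.36, adjusted p = 1.89e-07). Without the globin-rich libraries it was 1.51 (SE 0.38, adjusted p = 0.00746), when 2.03% of genes were called. In set 1 of E11, where globin transcripts made up at most 0.164% of a ventral library, all 4 libraries had *Car2* (median 244.1 TPM) and the log2 fold change was 1.93 (adjusted p = 0.0265).

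*Plek* moved in the opposite direction. It was found in 12 of 21 E10 ventral libraries (0, 68.6 and 335.7 TPM) and in 4 of 17 at E11 (0, 0 and 120.5 TPM), 73 against 6 transcripts. The log2 fold change was -2.28 (SE 0.49, adjusted p = 5.35e-04), -2.39 without the globin-rich libraries (adjusted p = 7.80e-04) and -2.0 with DESeq2 (adjusted p = 0.0243). The 15 macrophage genes, among which *Fcgr3* also fell (-2.26, adjusted p = 0.00570), had a median of 0.0247% of the library at E10 (0 to 0.218%) and 0.0121% at E11 (0 to 0.0658%). Their part in the fall of *Plek* was not tested.

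*Alas2* and *Klf1* rested on few libraries. *Alas2* had 0 transcripts in the 21 E10 ventral libraries and 44 in 6 of 17 at E11. This is 29 times the E10 level when that group is set to a floor of 3 counts over the group. Such a ratio leaves out the counting error of the E11 transcripts, so it is not a lower bound. Of the 44, 33 came from the ventral wIAHC with 13.2% globin and 7 from the one with 23.7%. Without these 2 libraries *Alas2* had 4 transcripts (2.99 times the same floor) and, with all globin-rich libraries left out, an adjusted p of 0.0973 by edgeR. *Klf1* had 0 transcripts at E10 and 24 in 3 libraries at E11 (15.8 times the same floor), and 21 of the 24 were in the wIAHC with 13.2% globin. Without that library alone its adjusted p by edgeR was 0.175, and without all globin-rich libraries it was 0.484 with 1 transcript left. The absence at E10 depends on the minimum depth, since the E10 ventral wIAHC with 27.2% globin (3425 transcripts) held 3 *Alas2* and 1 *Klf1* transcripts and the E10 dorsal one with 25.9% held 4 and 3. With a minimum of 2000 transcripts the pooled E11 to E10 ratio of ventral wIAHCs alone was 29.8 for *Alas2* (9.61 to 149.7) and 50.3 for *Klf1* (8.30 to 2061). The wIAHC with 13.2% globin held 33 of the 48 E11 *Alas2* and 21 of the 27 E11 *Klf1* transcripts. All 3 *Alas2* transcripts and the 1 of *Klf1* at E10 were in the ventral wIAHC with 27.2% globin. Both ratios thus rest largely on 1 library of each stage, and their size without these was not computed. The E11 ventral wIAHC with 13.2% globin held 38 *Car2*, 4 *Zfpm1* and 2 *Gata1* transcripts and 1 of *Nfe2*, but none of *Pf4*, *Plek* or *Gp1bb*.

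**Figure D4:**
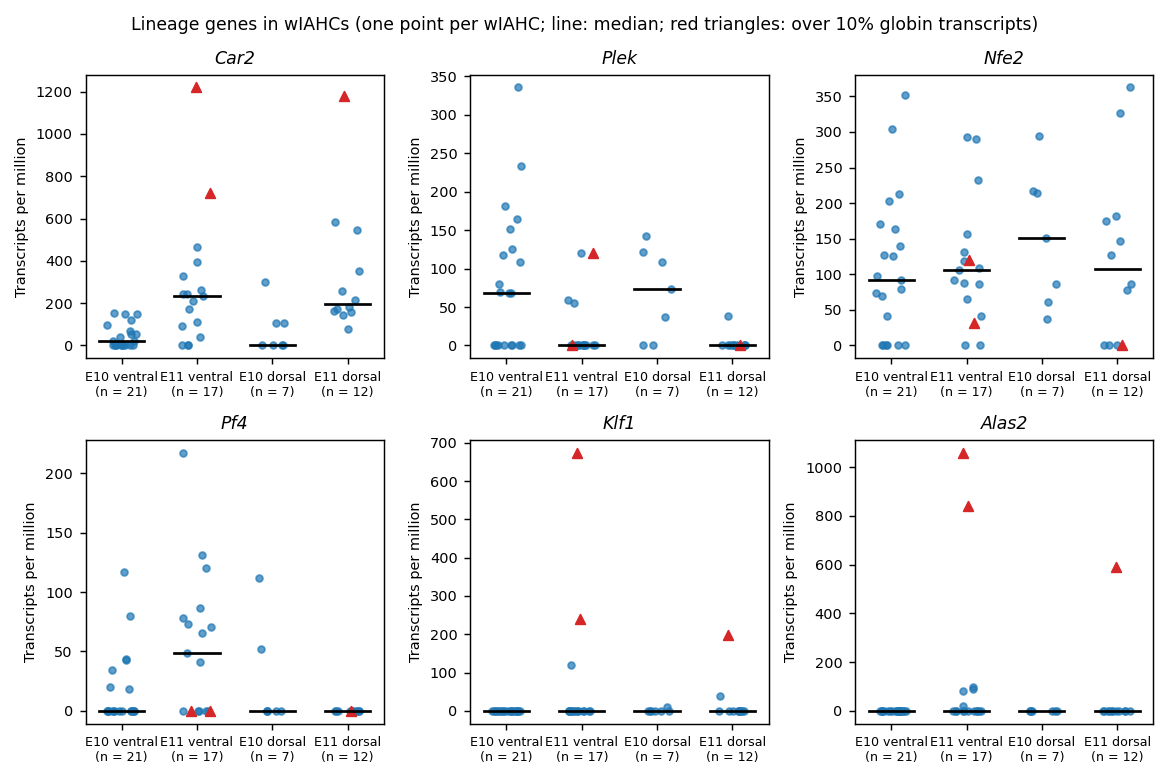
Level of 6 genes (TPM, vertical axis) in each wIAHC (points) by stage and side, with the group median (line) and wIAHCs over 10% globin as red triangles. *Car2* has a median of 234.7 TPM in E11 ventral against 18.9 in E10 ventral wIAHCs, and the high *Klf1* and *Alas2* values belong to the red triangles.

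The other 5 members, the regulators *Nfe2*, *Zfpm1* and *Gata1* and the platelet genes *Pf4* and *Gp1bb*, were not called in this fit, though *Pf4* was at a minimum of 2000 transcripts. *Nfe2* was found in 15 of 21 E10 and 15 of 17 E11 ventral libraries at medians of 91.5 and 106.3 TPM, with a log2 fold change of -0.16 (SE 0.36, adjusted p = 0.885 by edgeR). *Zfpm1* was in 12 of 21 and 10 of 17, with -0.78 (SE 0.41, adjusted p = 0.353). *Pf4* was in 7 of 21 and 10 of 17, with 1.06 (SE 0.49, adjusted p = 0.298). *Gata1* and *Gp1bb* were each in 1 library of either group. At this depth a low level is hard to see, since 1 transcript in the shallowest ventral library amounts to 167.8 TPM at E10 and 131.5 TPM at E11.

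**Figure D5:**
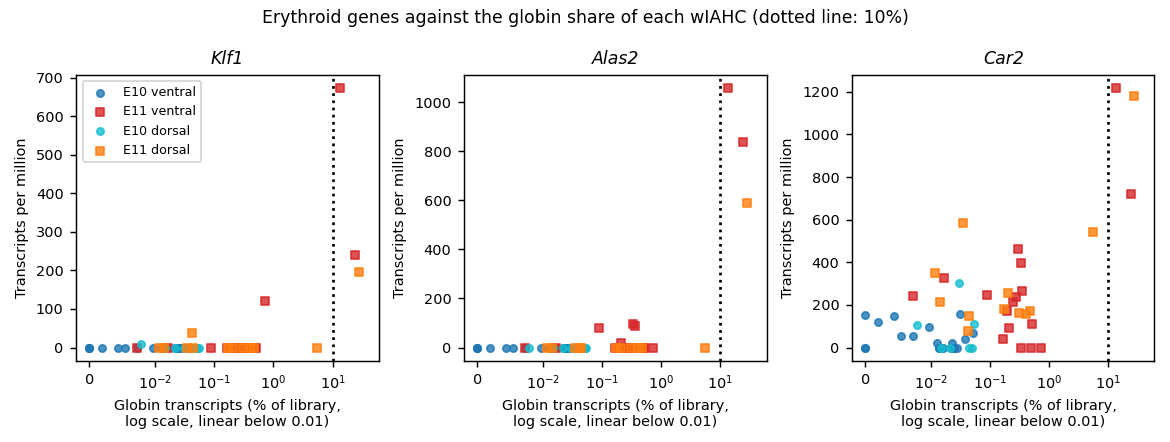
Level of *Klf1*, *Alas2* and *Car2* (TPM, vertical axis) against the globin share of each wIAHC (percent of transcripts, logarithmic axis that is linear below 0.01), coloured by stage and side, with a dotted line at 10%. *Klf1* and *Alas2* are highest in the 3 wIAHCs right of the line, while *Car2* is found throughout.

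The same edgeR fit, which called 2.27% of all genes, placed these genes among their pathways. Of 18 erythroid regulators, 2 were called higher in E11 ventral wIAHCs, *Klf1* and the erythropoietin receptor *Epor* (log2 fold change 2.00, adjusted p = 0.0443). Of 19 haem and iron genes 4 were higher, *Alas2*, *Cpox* of the haem pathway (1.95), the mitochondrial iron carrier *Slc25a37* (1.49) and ferritin *Fth1* (0.81). Of 20 red cell membrane and enzyme genes tested 8 were higher, among them the anion exchanger *Slc4a1* (4.69), *Hemgn* (2.8) and *Car2*. All 7 globin genes tested were higher, from *Hbb-b1* (2.86) to *Hba-x* (8.38). Of 27 megakaryocyte and platelet genes tested, 0 were higher and 1, *Plek*, was lower, a count close to the share of all genes. The medians were -0.08, 0.61, 1.46, 6.18 and -0.60, against -0.10 over all genes.

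Without the globin-rich libraries, 0 of the 18 regulators and 0 of the 19 haem and iron genes were called, 1 red cell gene (*Car2*) and 4 globins (*Hbb-y*, *Hbb-bh1*, *Hba-x* and *Hba-a1*) were higher, and *Gp9*, a platelet receptor subunit, was higher beside the lower *Plek*. Of all genes 2.03% were called in that fit, so a count of 0 in a list this short is near the share of all genes. The globin level differed between the E11 sets. It was 0.00732% to 0.164% of the library in the 4 ventral libraries of set 1 and 0.190% or more in the 13 of set 2. In E10 ventral libraries it was 0 to 0.0514%. Leaving out the globin-rich libraries gave medians of -0.05 for regulators, -0.12 for haem and iron genes and 0.31 for red cell genes. The median over all genes was -0.10. In the fits without the filter, the erythroid calls other than *Car2* and globins were thus lost when the globin-rich libraries were left out. E11 set 1, which holds none of these libraries, gave the *Car2* values above.

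In dorsal wIAHCs no member was called between E10 and E11 by edgeR, where 0.785% of all genes were (25 of 107 higher, against 83 of 99 under RLE scaling), and 4 of the 9 had an unadjusted p under 0.05 (*Alas2*, *Car2*, *Pf4* and *Plek*), as had 10.3% of all genes. DESeq2 gave an adjusted p to 3588 genes and 3 of the 9 members, called 1.7% of these genes and none of the 3, and *Car2* and *Zfpm1* had an unadjusted p under 0.05, as had 4.59% of the 13627 genes entered. *Car2* was in 3 of 7 E10 libraries (0, 0 and 302.1 TPM) and in all 12 E11 libraries (77.5, 198.2 and 1181 TPM), with a log2 fold change of 1.59 (SE 0.58, adjusted p = 0.202). *Plek* was in 5 of 7 and 1 of 12, with -2.97 (SE 0.86, adjusted p = 0.0612). *Pf4* was in 2 of 7 and 0 of 12, with an adjusted p of 0.112. The directions of *Car2* and *Plek* were those of the ventral side, with fewer and shallower libraries.

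No member was called between ventral and dorsal wIAHCs at E10 by edgeR, which called 0.0587% of all genes, or at E11, where it called 0.0881%. At an unadjusted p under 0.05 were 1 member at E10 (*Zfpm1*), with 5.3% of all genes, and 3 at E11 (*Alas2*, *Klf1* and *Pf4*), with 8.93%. DESeq2 called 0.00734% of 13627 genes at E11 and 0 of the 5173 given an adjusted p at E10. By DESeq2 *Zfpm1* was the 1 member with an unadjusted p under 0.05 at E11, among 374 genes (2.74% of the 13627 entered). No member was among the 211 at E10 (1.55% of the 13627 entered). The interaction of stage and side, which tests whether the change from E10 to E11 differed between the sides, called no member (0.154% of genes). *Klf1*, *Pf4* and *Zfpm1* had an unadjusted p under 0.05 by edgeR, with 6.36% of all genes. By DESeq2 *Zfpm1* had one, among 306 genes (2.25% of the 13627 entered). *Pf4* at E11 was the widest apart, in 10 of 17 ventral and 0 of 12 dorsal libraries, with an adjusted p of 0.127 by edgeR. Its log2 difference of 3.30 (SE 0.91) is a fitted value against a group with 0 transcripts, so it gives no exact size. These side comparisons rest on 7 and 12 dorsal libraries, so a difference of moderate size could have been missed.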

How the data were processed

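CEL-Seq libraries of sorted single cells and of whole IAHCs were analysed from the deposited tables. Per the labels and the study's methods, reads were aligned by the authors with BWA 0.6.2-r126 (mm10), molecules were counted by their barcodes, and the collision-corrected estimated counts were deposited. The annotation is not given in the sources used here. In the single-cell tables the authors had down-sampled each cell to a fixed total and added 0.1, which was subtracted here, leaving whole transcripts. E11 cells were also thinned to 3000 transcripts (seed 7). The estimated counts of wIAHCs were rounded and libraries under 5000 transcripts were left out. Groups were tested with edgeR 4.0.16 (R 4.3.3) in 1 quasi-likelihood model of the 4 groups, with DESeq2 1.42.0 as the alternative. The edgeR test without the filter was checked on simulated data for the ventral comparison between stages. DESeq2 was not checked in this way. The planned filter on low counts left none of the 9 genes, so tests without it are reported, and further settings without the filter were chosen after seeing the data. The 9 genes and all gene lists were chosen with earlier results of these data known. All 9 genes were named throughout, with, in each wIAHC contrast, the called genes of each list (at most 8 by adjusted p) and, among the 5 genes most like a member in E10 YS cells, those described. Positions are those of GRCm38, and promoter sequences those of RefSeq for GRCm38.p6. Alternatives were the tool, the scaling, the minimum depth, the detection threshold, the globin-rich libraries, the E11 sets and each library or sorted set left out in turn.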

Additional observations from a re-analysis of the deposited data

Results flagged for a closer look

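For 3 of the 9 genes, 1 of the 7 E10 dorsal wIAHCs stood far above the others, and it was a different library for each gene. *Klf1* was at 8.71 TPM in 1 library and at 0 in the other 6, which is a single transcript. *Gp1bb* was at 60.7 TPM in 1 library, again a single transcript. *Car2* reached 302.1 TPM, with the next library at 108.3 TPM. The gap to the nearest library was compared with the range of the group in 7 such tests. Chance alone flags about 1 in 20 groups of continuous values, a rate that does not hold here, since a gene seen in 1 library of 7 always has a gap equal to its range.

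Signal of the same genes was also present in the 52 wIAHC libraries under 5000 transcripts that the reported tests did not use. Those of at least 2000 transcripts entered only the alternative with that minimum. Together they held 25 transcripts of *Pf4*, of which 21 were in 1 library, 20 of *Car2* in 7 libraries, 11 of *Alas2* in 4, 9 of *Nfe2*, 7 of *Klf1*, 6 of *Zfpm1* and 4 of *Plek*, among 99810 transcripts in all.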

How the results depend on the processing

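The planned edgeR fit with its filter on low counts tested 0 of the 9 genes in wIAHCs and called 0 in each comparison. Between E10 and E11 ventral wIAHCs, 4 members were called without the filter, with RLE scaling, with a minimum of 10000 transcripts, with globin genes left out and with E11 set 2 alone. With a minimum of 2000 transcripts 5 were called, the fifth being *Pf4* (log2 fold change 2.16), which then includes a library that alone holds 21 *Pf4* transcripts. The share of all genes called was 2.27% without the filter, 2.84% with RLE scaling and 4.05% at a minimum of 2000. It was 2.25% at 10000, 2.25% with globin genes left out, 0.871% with E11 set 1 and 2.6% with set 2. With DESeq2, with E11 set 1 alone and without the globin-rich libraries 2 were called. Leaving out each of the 57 libraries in turn gave 3 to 4 calls on the ventral side and 0 to 1 on the dorsal side (*Plek*). For ventral against dorsal it gave 0 at E10 and 0 to 1 at E11 (*Alas2*). The share of all genes called in each of these fits is not shown, so these counts cannot be set against it. On the dorsal side 1 member was called with a minimum of 2000 (*Plek*, adjusted p = 0.0256 by edgeR) and with RLE scaling (*Car2*, adjusted p = 0.0322 by edgeR), where 1.01% and 0.726% of all genes were. With a minimum of 2000, 2 were called for ventral against dorsal at E11 (*Alas2* and *Pf4*, with 0.123% of all genes) and 1 in the interaction (*Pf4*, with 0.13%). RLE scaling moved the ventral median of all genes from -0.10 to 0.02. *Nfe2* changed sign on the ventral side with DESeq2 (0.049), RLE scaling (0.046) and E11 set 1 alone (0.10), and on the dorsal side with DESeq2 (0.20) and RLE scaling (0.20), without a call in any. *Klf1* was at 0 in the 4 ventral libraries of E11 set 1, while 1 dorsal library of that set held 1 transcript. The cause of these shifts was not tested.

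At 2 transcripts or more, *Gata1* was in 14.2% of E10 YS cells, 10.9% of E11 YS cells and 1.03% of E11 IAHC cells. Thinned to 3000 transcripts it was in 15.2% of E11 YS cells. Leaving out 1 sorted set at a time gave 27.7% to 38.2% for E10 YS cells and 7.20% to 8.75% for E11 IAHC cells. At 2 transcripts or more, *Klf1* was in 15% of E10 YS cells with *Gata1* (3.21 to 37.9) and 9.09% without (4.63 to 15.7), with overlapping intervals. In thinned E11 IAHC cells it was in 12.5% with *Gata1* and 0.365% without, again with overlapping intervals. Of 664 other shares under an alternative, 550 stayed within their interval and 114 did not. With E11 set as a covariate, ventral against dorsal at E11 called 0 members (12 of 12265 genes by edgeR). In that fit 2 members, *Alas2* and *Pf4*, had an unadjusted p under 0.05, with 10.1% of all genes. No paired analysis of wIAHCs was possible because their numbers mark no shared embryo. Single-cell populations were not tested, and type I and type II pre-HSCs were set side by side by set number for *Car2* without a test.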
